A study of Zea mays with 8 samples.

Results

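Low nitrogen lowered a set of genes in the growing maize leaf both where its cells lengthen and where they divide, and 67 loci of that set are described here. They were chosen by the measured low and high nitrogen values, among the 43110 loci of the deposited table, under 4 conditions. The difference of group means of log2(FPKM + 1), low minus high nitrogen, had to be -1.5 or lower in each zone; both low nitrogen libraries had to lie below both high nitrogen libraries in each zone; the mean had to reach 5 FPKM in both high nitrogen groups; and 5 loci (lox1, pao1, HB, LOB14 and GLK44) that met these conditions were left out. FPKM is a read count per locus scaled for its length and for the size of the library, so levels of different loci can be set side by side; that the values are FPKM was judged from the values themselves. Of 12532 loci with at least 5 FPKM in both high nitrogen groups, 666 met the conditions in the elongation zone and 152 in the division zone. Because the nitrogen values chose the members, the members' nitrogen values are given as a description and without a test. For the members only the difference between the zones was tested.

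The plants were the maize inbred B73, grown in hydroponic culture, and the tissue was leaf 6. Its elongation zone, where cells lengthen, and its division zone, where they are formed, were sampled under low nitrogen (LN, 0.04 mM) and high nitrogen (HN, 4 mM), which gave the groups LN elongation, HN elongation, LN division and HN division. Each of the 4 groups had 2 libraries, 8 in all, described by the submitters as biological replicates; the labels give neither plant numbers per library nor plant age. The study asked how nitrogen shortage reduces cell production and elongation and whether gibberellin synthesis is involved.

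A grass leaf grows from its base: cells formed in the division zone are displaced through the elongation zone and become photosynthetic blade farther up. Nitrogen is needed for proteins, nucleic acids and chlorophyll, and in a leaf a large part of it is held in chloroplast protein, above all in Rubisco, the carbon dioxide fixing enzyme. Nitrate is taken up, reduced by nitrate and nitrite reductase and built into amino acids by glutamine synthetase.

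Summed FPKM ran from 652957 to 1113553 per library, with the highest sum in HN elongation replicate 2, and 21136 to 22119 loci reached 1 FPKM; the number of reads per library is unknown here. Markers of the zones differed between the zone labels. The summed level of 5 genes of dividing cells was 13.6 to 24.2 FPKM in the 4 elongation and 188 to 254 FPKM in the 4 division libraries, and that of 5 genes of lengthening cells was 554 to 898 FPKM in the elongation and 15.7 to 28.9 FPKM in the division libraries. Within each zone these sums also differed with nitrogen, without overlap. In the elongation zone dividing-cell markers had 20.8 and 13.6 FPKM in the LN libraries, against 22.3 and 24.2 FPKM in the HN libraries. Lengthening-cell markers had 898 and 881 FPKM in the LN elongation libraries, against 554 and 839 FPKM in the HN elongation libraries. In the division zone dividing-cell markers had 249.6 and 254 FPKM in the LN libraries, against 188 and 194 FPKM in the HN libraries. Lengthening-cell markers had 15.7 and 16.6 FPKM in the LN division libraries, against 25.0 and 28.9 FPKM in the HN division libraries. Among the dividing-cell markers GIF1 differed most there, with 65.6 and 84.7 FPKM at LN against 23.7 and 21.6 FPKM at HN. MCM7 was also higher in both LN division libraries, while cyc3, krp13 and MCM6 overlapped between the supplies. The part of these marker differences in the members' lower values in either zone was not tested. HN elongation replicate 2 stood apart from replicate 1: it was the higher of the pair at 46 of the 67 members, and the median of replicate 2 minus replicate 1 was 0.35 on the log2 scale over the members and 0.18 over all loci with at least 5 FPKM in both HN groups. Without that library 56 of the 67 members still met every condition. All 67 stayed lower under LN in both zones, which the rule had fixed in advance.

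Most members were still detected under LN. Their median level was 7.55 FPKM in the LN elongation group and 46.3 FPKM in the HN elongation group, and 2.43 FPKM in the LN division group and 13.8 FPKM in the HN division group. The median change was -2.09 in the elongation zone, from -6.06 to -1.53, and -1.94 in the division zone, from -5.76 to -1.502. For the 24706 loci that averaged 1 FPKM or more in some group (the tested loci, all 67 members among them), the median changes were 0.07 and -0.01. Where both LN libraries had a value above 0, the LN mean was a median of 22.3% of the HN mean in the elongation zone (64 members) and 20.4% in the division zone (63 members). The LN mean was under 1 FPKM for 15 members in the elongation zone and 16 in the division zone, and 5 members were listed at 0 in at least 1 LN library. In bulk tissue, fewer cells of a type and less RNA per cell cannot be told apart.

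The fall was larger in the elongation zone for 45 members and in the division zone for 22, with a median difference of -0.25, against -0.02 over all loci with at least 5 FPKM in both HN groups. It was larger by 1 or more in the elongation zone for 11 members, among them D14a, GRMZM2G061439 and GRMZM2G102959, and in the division zone for 1, a locus of 229 bases without a gene identifier (XLOC_009516). In 23 members both changes reached -2, and in 5 both reached -3. These differences between zones are descriptions, since the choice used both changes. They also depend on the 1 added to each FPKM value before taking logs. With 0.1 added, the median changes were -2.27 in the elongation zone and -2.26 in the division zone. As a share of the HN mean, D14a kept 3.63% in the elongation zone and 15.1% in the division zone. GRMZM2G102959 kept 2.08% and 1.76%.

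**Figure D1:**
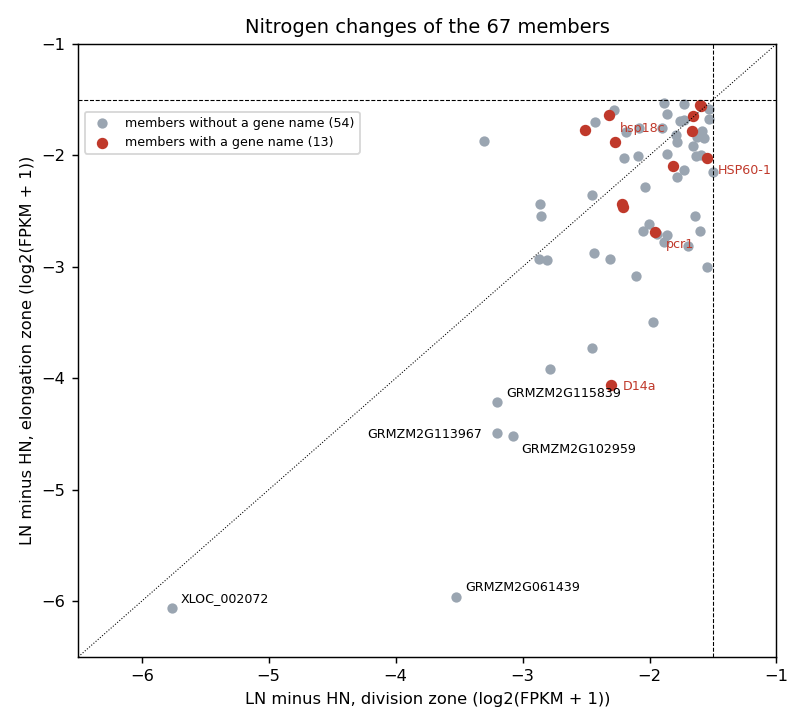
Change under low nitrogen (LN minus HN, log2(FPKM + 1)) of each of the 67 members in the division zone (x axis) and the elongation zone (y axis). Dashed lines mark the threshold of -1.5, the dotted line equal changes, and red points the 13 members with a gene name; 45 points lie below the dotted line.

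Of the 67 members, 61 carry a gene identifier, 46 of these matched a gene in RefSeq's table of the later assembly Zm-B73-REFERENCE-NAM-5.0, and 13 loci have a gene name there or in the deposited table. The other 54 are called by their identifiers, and no function is assigned to them. They lay on all 10 chromosomes, from 4 on chromosome 7 to 13 on chromosome 1. Their median span was 2370 bases, introns included, against 4455 bases for all loci with at least 5 FPKM in both HN groups. Only 2 members, both matched to the gene shbp1, lay within 100 kb of another member. A span shared with another locus was found for 10 members, 14.9% against 13.7% of tested loci, and for these, as strand was not stated, reads cannot be assigned with certainty.

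The lowest 10 members by the mean of both changes had at most 5.07 FPKM in any LN library, and 9 of them have no gene name. In the values below, replicate 1 stands before replicate 2, and positions are on B73 RefGen_v3. XLOC_002072 (chromosome 1, 219455814 to 219456640), without a gene identifier, had 0 and 5.07 FPKM in the LN elongation libraries, against 131 and 204 FPKM in the HN elongation libraries. It was listed at 0 in both LN division libraries, against 63.7 and 44.5 FPKM in the HN division libraries. Its changes of -6.06 and -5.76 were the lowest of the set in each zone.

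GRMZM2G061439 (chromosome 3, 214453881 to 214454616) had 0.0988 and 0 FPKM in the LN elongation libraries, against 28.6 and 143 FPKM in the HN elongation libraries, and 0 and 0.0970 FPKM in the LN division libraries, against 12.4 and 9.78 FPKM in the HN division libraries. HN elongation replicate 2 was the high library here. GRMZM2G113967 (chromosome 4, 184154938 to 184157596) had 0.134 and 0.234 FPKM in the LN elongation libraries, against 37.3 and 17.5 FPKM in the HN elongation libraries, and 0.485 and 0.361 FPKM in the LN division libraries, against 13.4 and 10.9 FPKM in the HN division libraries. Its LN mean was 0.672% of the HN mean in the elongation zone and 3.48% in the division zone.

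GRMZM2G102959 (chromosome 5, 209955746 to 209958660) had 1.33 and 0.369 FPKM in the LN elongation libraries, against 32.1 and 49.9 FPKM in the HN elongation libraries, and 0.0923 and 0.216 FPKM in the LN division libraries, against 9.38 and 8.14 FPKM in the HN division libraries. GRMZM2G115839 (chromosome 1, 273915612 to 273916767) had 0.546 and 1.21 FPKM in the LN elongation libraries, against 19.8 and 55.7 FPKM in the HN elongation libraries. In its division zone the values were 0.639 and 0.820 FPKM in the LN libraries, against 19.7 and 11.2 FPKM in the HN libraries. In both loci no LN library exceeded 1.33 FPKM and no HN library was under 8.14 FPKM.

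On the log2(FPKM + 1) scale GRMZM6G654251 and GRMZM2G171468 also had falls larger by over 1 in the elongation zone, but not as a share of the HN mean. GRMZM6G654251 (chromosome 2, 173431729 to 173433745) changed by -3.92 in the elongation zone, with 0.544 and 0.375 FPKM in the LN libraries, against 16.8 and 26.2 FPKM in the HN libraries. Its change in the division zone was -2.78, with 0 and 0.0606 FPKM in the LN libraries, against 6.50 and 5.71 FPKM in the HN libraries. Its LN and HN means were 0.460 and 21.5 FPKM in the elongation zone, and 0.0303 and 6.10 FPKM in the division zone. GRMZM2G171468 (chromosome 5, 6146192 to 6148391) changed by -3.73 and -2.45, and had at most 0.45 FPKM in any LN library. Its LN mean was 2.34% of the HN mean in the elongation zone and 1.99% in the division zone. GRMZM5G830545 (chromosome 3, 172414593 to 172416758) and GRMZM2G055802 (chromosome 1, 294073998 to 294075815) had nearly equal changes in both zones, -2.93 and -2.87 for the first and -2.94 and -2.81 for the second. In the elongation and the division zone, the LN mean was 5.86% and 2.28% of the HN mean for GRMZM5G830545. For GRMZM2G055802 it was 2.23% and 3.29%.

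**Figure D2:**
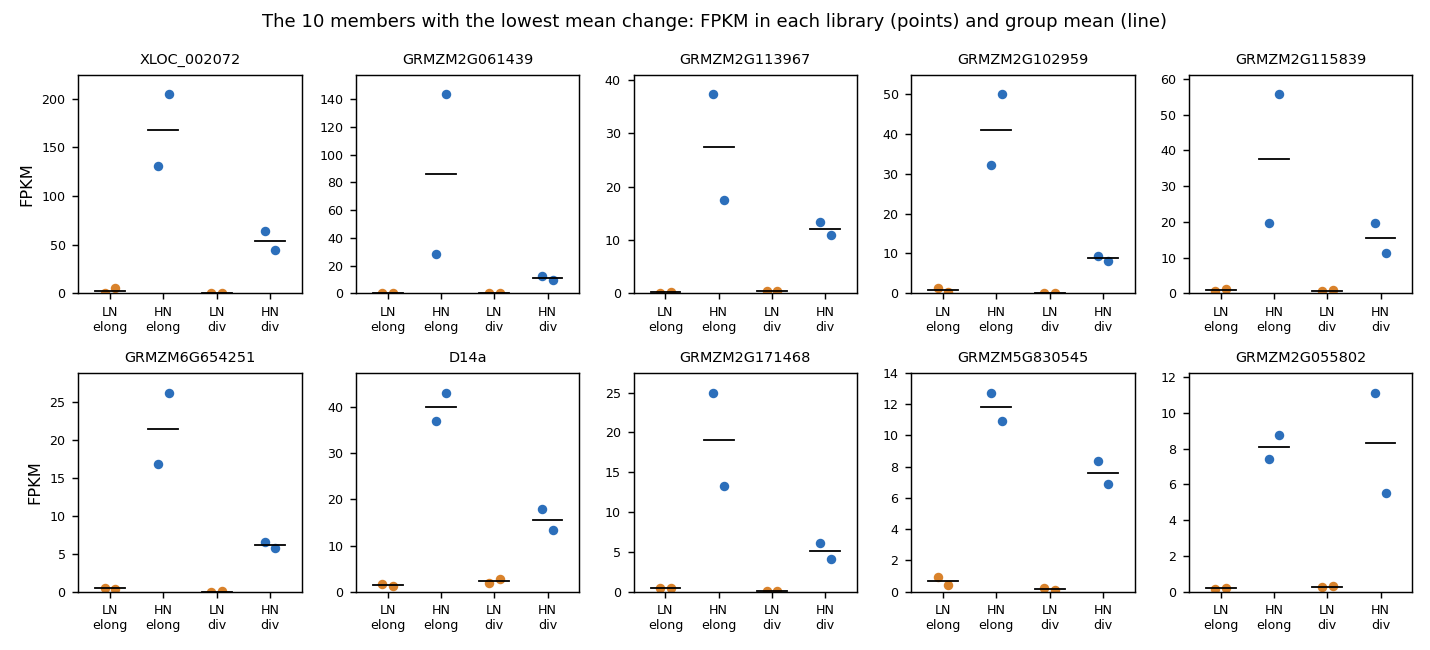
FPKM in each library for the 10 members with the lowest mean change, with LN (orange) left of HN (blue) in the elongation zone (elong) and the division zone (div), and a line at each group mean. In all 10 both LN points lie below both HN points in each zone, as the rule required; the LN elongation value of XLOC_002072 that stands above 0 is 5.07 FPKM.

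Chloroplast proteins are coded by 6 of the 13 named loci, which had a median change of -2.26 in the elongation and -1.88 in the division zone. Of these loci only pcr1 kept a smaller share of its HN mean in the elongation zone (16.1%) than in the division zone (26.0%). A pair of loci code for the small subunit of Rubisco. The locus named rbcS (GRMZM2G113033, chromosome 2, 143429392 to 143430581) had 64.2 and 49.8 FPKM in the LN elongation libraries, against 261 and 385 FPKM in the HN elongation libraries, and 1.96 and 2.08 FPKM in the LN division libraries, against 13.6 and 12.4 FPKM in the HN division libraries. The locus named RBCS (XLOC_023187, chromosome 4, 190228051 to 190230534) had 51.7 and 47.6 FPKM in the LN elongation libraries, against 252 and 295 FPKM in the HN elongation libraries, and 2.90 and 3.12 FPKM in the LN division libraries, against 16.3 and 19.0 FPKM in the HN division libraries. Both kept 15.6 to 18.2% of their HN mean in each zone. Small subunit genes are near-identical copies, and XLOC_023187 shares its span with another locus, so how the reads were divided between them is uncertain.

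Protochlorophyllide reductase makes the chlorophyll precursor chlorophyllide in the light, and its gene pcr1 (GRMZM2G084958, chromosome 2, 1463875 to 1465462) had the highest group mean of all members, in the HN elongation group. It had 379 and 203 FPKM in the LN elongation libraries, against 1566 and 2057 FPKM in the HN elongation libraries, and 58.3 and 86.0 FPKM in the LN division libraries, against 290.1 and 266 FPKM in the HN division libraries. PSAH (XLOC_032298, chromosome 6, 164173766 to 164175105), a subunit of photosystem I, had 314 and 221 FPKM in the LN elongation libraries, against 675 and 1013 FPKM in the HN elongation libraries, and 22.4 and 31.3 FPKM in the LN division libraries, against 86.9 and 84.0 FPKM in the HN division libraries. Its change was -1.65 in the elongation zone and -1.65 in the division zone.

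The gene shbp1, named for the Calvin cycle enzyme sedoheptulose bisphosphatase, was represented by 2 loci that lie 0.546 kb apart on chromosome 3. XLOC_018337 (chromosome 3, 178864336 to 178864898) had 9.18 and 11.7 FPKM in the LN elongation libraries, against 56.7 and 39.8 FPKM in the HN elongation libraries, and 1.66 and 1.55 FPKM in the LN division libraries, against 7.85 and 8.45 FPKM in the HN division libraries. XLOC_018338 changed by -1.78 and -1.66, against -2.09 and -1.81 for its neighbour. Both match one RefSeq gene, so they are not independent members.

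Markers of photosynthetic blade moved with these loci. The markers comprise 7 loci under 6 names, of which rbcS and RBCS are members and 1, a further RBCS locus (XLOC_020990), was listed at 0 in every library. Summed over the 5 loci that are no members, they had 279 and 156 FPKM in the LN elongation libraries, against 846 and 1146 FPKM in the HN elongation libraries. In the division zone they had 20.7 and 29.1 FPKM in the LN libraries, against 57.6 and 55.9 FPKM in the HN libraries. Of the HN elongation sums, cab-m1 alone gave 554 and 799 FPKM. The part of photosynthetic cells in the members' values was not tested.

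Other named members belong to sugar metabolism and protein folding. The gene gpc4 (GRMZM2G176307, chromosome 5, 181570933 to 181575725) codes for a cytosolic glyceraldehyde-3-phosphate dehydrogenase, an enzyme of glycolysis. It had 73.5 and 75.6 FPKM in the LN elongation libraries, against 219 and 351.6 FPKM in the HN elongation libraries, and 45.6 and 51.4 FPKM in the LN division libraries, against 254 and 222 FPKM in the HN division libraries. HSP60-1 (GRMZM2G458208, chromosome 5, 31022591 to 31026410) is a chaperonin that folds proteins in mitochondria. It had 17.5 and 18.1 FPKM in the LN elongation libraries, against 71.5 and 79.8 FPKM in the HN elongation libraries, and 52.7 and 48.3 FPKM in the LN division libraries, against 149.7 and 149 FPKM in the HN division libraries. A further locus matched to the same RefSeq gene (XLOC_026918) changed by -1.999 in the elongation zone and by -1.19 in the division zone, and so did not meet the rule there. The small heat shock gene hsp18c (GRMZM2G034157, chromosome 8, 21620266 to 21621116) had 10.2 and 11.1 FPKM in the LN elongation libraries, against 23.0 and 53.9 FPKM in the HN elongation libraries, and 0.301 and 0.311 FPKM in the LN division libraries, against 6.41 and 4.73 FPKM in the HN division libraries. In the elongation zone its HN replicates differed more than its LN replicates did.

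Signalling was represented by 3 genes. D14a (GRMZM2G077127, chromosome 1, 22436998 to 22439491) is named for the receptor of strigolactones, hormones that restrain shoot branching. It had 1.58 and 1.33 FPKM in the LN elongation libraries, against 37.0 and 43.1 FPKM in the HN elongation libraries, and 1.99 and 2.73 FPKM in the LN division libraries, against 17.9 and 13.3 FPKM in the HN division libraries. The LN mean was 3.63% of the HN mean in the elongation zone and 15.1% in the division zone. RR5 (GRMZM6G980248, chromosome 3, 148064771 to 148065302) is a type-A response regulator, of the class that cytokinin induces and that dampens the cytokinin signal. It had 5.50 and 5.48 FPKM in the LN elongation libraries, against 15.0 and 21.6 FPKM in the HN elongation libraries, and 6.77 and 5.88 FPKM in the LN division libraries, against 25.6 and 17.6 FPKM in the HN division libraries. Its identifier matches 2 RefSeq genes, and 3 loci of the table carry the name, so its reads may be split between copies. Of the other loci, XLOC_018031 changed by -1.18 in the elongation zone and -1.15 in the division zone. XLOC_018030 changed by 0.11 and -0.43, and neither change was called. The annexin gene anx2 (GRMZM2G061950, chromosome 5, 208242490 to 208245487) codes for a calcium-dependent membrane-binding protein. It had 38.0 and 37.8 FPKM in the LN elongation libraries, against 127 and 136 FPKM in the HN elongation libraries, and 8.74 and 14.1 FPKM in the LN division libraries, against 79.5 and 58.0 FPKM in the HN division libraries.

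The remaining named member, PRP (GRMZM2G049915, chromosome 10, 36785988 to 36790355), is named for a proline-rich protein, and the reference table also lists the unrelated name Sf3a2 for it. It had 351.4 and 812 FPKM in the LN elongation libraries, against 1585 and 1552 FPKM in the HN elongation libraries, and 39.6 and 47.3 FPKM in the LN division libraries, against 101 and 174 FPKM in the HN division libraries. The LN elongation replicates lay far apart here, and the locus shares its span with another.

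**Figure D3:**
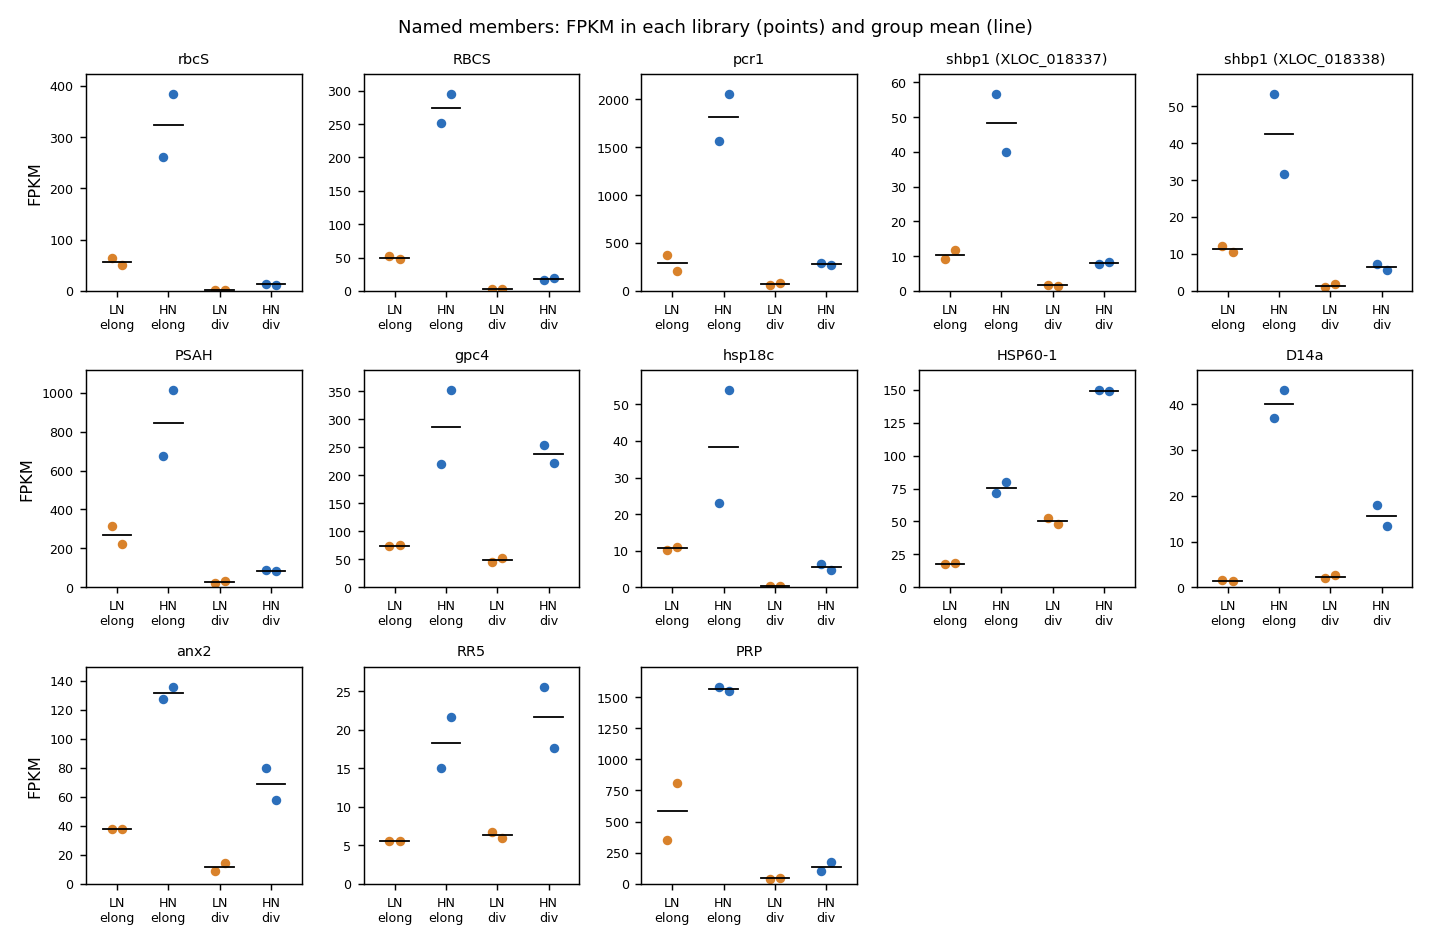
FPKM in each library for the 13 named members, with LN (orange) left of HN (blue) in the elongation zone (elong) and the division zone (div), and a line at each group mean; each panel has its own axis from 0. The 6 chloroplast genes stand higher in the elongation than in the division zone at both supplies, while HSP60-1 stands lower there.

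The threshold separated loci with nearly equal changes. Just inside it were GRMZM5G804323 (-2.15 in the elongation and -1.502 in the division zone), GRMZM2G036455 (-1.68 and -1.53) and GRMZM2G126505 (-1.59 and -1.53). Just outside were GRMZM2G407996 (-1.76 and -1.497), CYP71C4 (-3.19 and -1.49) and AC234520.1_FG003 (-1.49 and -1.66). GRMZM5G804323 and GRMZM2G407996 thus lay on either side of the threshold with almost the same division value.

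The elongation and division zones were then compared at each supply to see where the members are most abundant. More members were higher in the elongation zone than lower: 33 of 67 at LN (49.3%) and 41 of 67 at HN (61.2%). Over all tested loci the percentage higher was 26.2 at LN and 22.1 at HN, and over the 12532 loci with at least 5 FPKM in both HN groups it was 26.6 at LN and 21.9 at HN (limma, Benjamini-Hochberg adjusted p under 0.05). Lower in the elongation zone were 7 members at LN (10.4%) and 5 at HN (7.46%), against 22.4% and 19.7% of all tested loci and 22.7% and 17.4% of the loci at 5 FPKM. The median zone difference of the members was 1.04 at LN and 1.47 at HN, while over all tested loci it was 0.07 and -0.02. The rule and the zone comparisons use the same libraries. The rule's minimum of 5 FPKM was set on the HN values of both zones. Its change of -1.5 or lower in each zone was taken from the group means that the zone comparisons subtract. The choice and the test are therefore not fully separate, and the loci set beside the members did not have to show that change. The rule also required LN and HN libraries not to overlap, which can favour loci with close replicates. The test uses that same spread, and the loci set beside the members did not have to meet this condition.

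Zone calls were shared between supplies for most members. At both supplies 32 were higher in the elongation zone, 4 were lower and 17 were not called. At HN alone 9 were called higher and 1 lower, and at LN alone 1 was called higher and 3 lower; whether these differ between supplies was not tested. Without HN elongation replicate 2 the counts were 35 higher and 10 lower at LN, and 42 higher and 7 lower at HN. The count lower at LN changed to 4 without LN division replicate 2 and to 3 without LN elongation replicate 1.

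**Figure D4:**
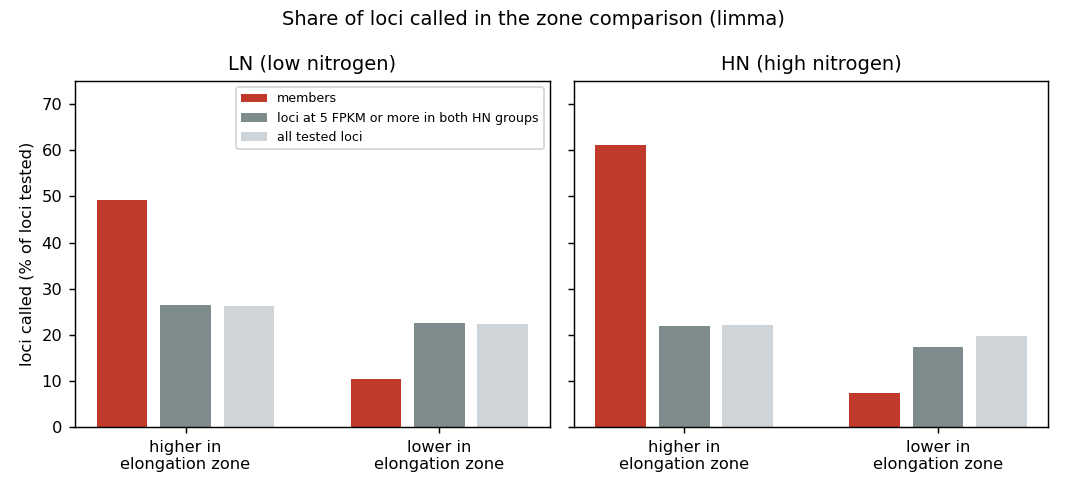
Percentage of loci called higher or lower in the elongation zone than in the division zone (limma adjusted p under 0.05) at LN (left) and HN (right), for the 67 members (red), the 12532 loci with at least 5 FPKM in both HN groups (dark grey) and all 24706 tested loci (light grey). Members are called higher at 49.3% and 61.2%, against 26.6% and 21.9% of the loci at 5 FPKM.

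All 6 chloroplast loci were higher in the elongation zone at both supplies. The difference for rbcS was 4.25 ± 0.22 SE, adjusted p = 3.15e-05 at LN and 4.51 ± 0.22 SE, adjusted p = 6.59e-05 at HN, and for RBCS it was 3.66 ± 0.15 SE, adjusted p = 1.74e-05 at LN and 3.88 ± 0.15 SE, adjusted p = 6.05e-05 at HN. It was 3.27 at LN and 3.26 at HN for PSAH, and 1.95 and 2.69 for pcr1, while the shbp1 loci had 2.13 and 2.37 at LN and 2.41 and 2.49 at HN. The summed blade markers given above, themselves photosynthesis genes, were likewise lower under LN and higher in the elongation zone. Whether the share of photosynthetic cells plays a part was not tested.

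Among the other named members, PRP, hsp18c and anx2 were higher in the elongation zone at both supplies. PRP differed by 3.59 at LN and 3.55 at HN (adjusted p = 0.000677 and 0.000979 in limma). The values for hsp18c were 3.16 and 2.48 (adjusted p = 0.000578 and 0.0021 in limma). For anx2 they were 1.68 and 0.94 (adjusted p = 0.00156 and 0.0203 in limma), and its call at HN was lost without HN division replicate 2 (adjusted p = 0.124) and without HN elongation replicate 2 (adjusted p = 0.0672). D14a was higher in the elongation zone at HN (1.31 ± 0.20 SE, adjusted p = 0.00249) and not called at LN (-0.45 ± 0.20 SE, adjusted p = 0.105). HSP60-1 was the 1 named member lower there, at both supplies (-1.45 ± 0.14 SE, adjusted p = 0.000255 at LN and -0.97 ± 0.14 SE, adjusted p = 0.0018 at HN). Neither RR5 nor gpc4 was called: RR5 differed by -0.17 at LN and -0.23 at HN, and gpc4 by 0.61 and 0.22. The gpc4 difference was called higher at LN without either HN elongation replicate (limma adjusted p = 0.00858 and 0.00848), with equal FPKM totals (0.0041) and with only the LN groups fitted (0.013). At HN it was called higher without HN elongation replicate 1 (limma adjusted p = 0.0269), and was -0.12 without replicate 2 and -0.03 with equal totals, not called in either.

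The largest rise and the largest fall between zones belonged to loci without a gene name. GRMZM2G480850 (chromosome 9, 7772597 to 7773364) had the largest rise at both supplies, with 4.86 ± 0.23 SE, adjusted p = 2.80e-05 at LN and 4.69 ± 0.23 SE, adjusted p = 7.21e-05 at HN. It had 44.3 and 44.7 FPKM in the LN elongation libraries, against 0.791 and 0.363 FPKM in the LN division libraries, and 152 and 223 FPKM in the HN elongation libraries, against 5.41 and 7.03 FPKM in the HN division libraries. GRMZM2G046284 (XLOC_008117), which shares its span with another locus, differed by 3.71 at LN and 3.89 at HN. At the other end GRMZM2G170400 (chromosome 6, 162503096 to 162507889) differed by -2.05 ± 0.13 SE, adjusted p = 6.16e-05 at LN and -2.15 ± 0.13 SE, adjusted p = 0.0001 at HN. It had 1.69 and 1.67 FPKM in the LN elongation libraries, against 9.40 and 10.8 FPKM in the LN division libraries, and 13.0 and 12.4 FPKM in the HN elongation libraries, against 58.1 and 61.3 FPKM in the HN division libraries. GRMZM2G427054 was also lower in the elongation zone at both supplies (-1.80 at LN and -1.55 at HN). GRMZM2G106445 was lower at HN (-1.42 ± 0.26 SE, adjusted p = 0.00532) and not called at LN (-0.73 ± 0.26 SE, adjusted p = 0.0531). At LN it was called lower in 6 alternatives, with limma adjusted p of 0.014 to 0.0404: a pseudocount of 0.1, both rescalings, only the LN groups fitted, and either HN elongation replicate left out. For each of these loci the 2 zones' libraries did not overlap at either supply.

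**Figure D5:**
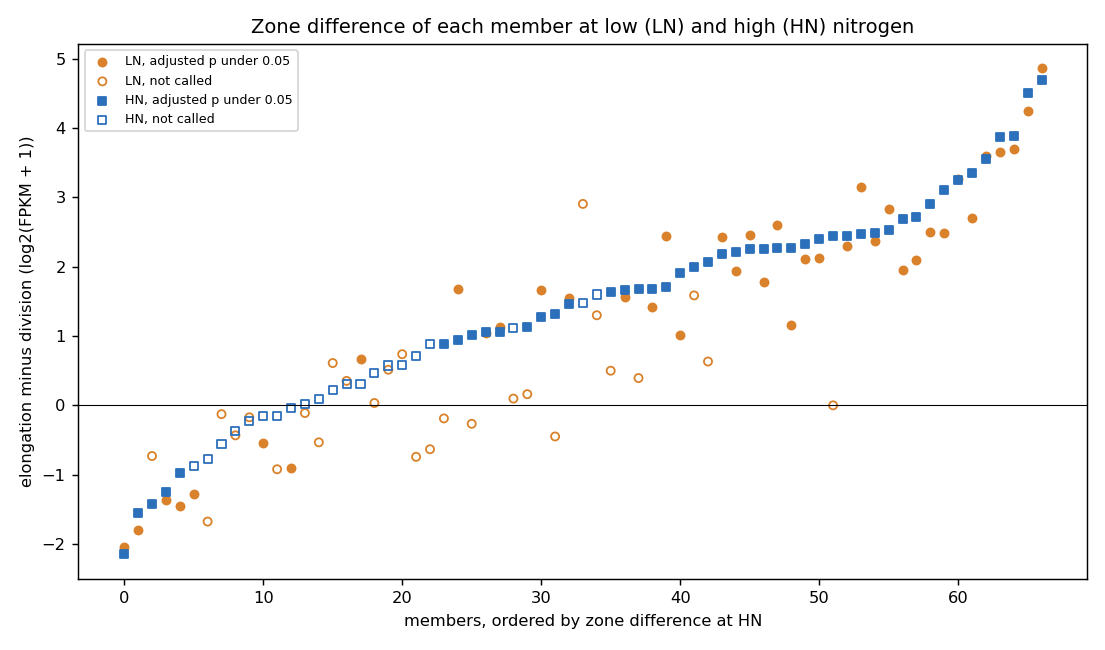
Elongation minus division zone difference (log2(FPKM + 1)) of each of the 67 members at LN (orange circles) and HN (blue squares), ordered along the x axis by the HN value; filled symbols passed an adjusted p of 0.05 in limma. At HN the values run from -2.15 to 4.69, with 41 filled squares above 0 and 5 below.

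Other genes of these pathways were followed through lists matched by gene name, with LN against HN tested in limma over all 24706 loci. Over all loci 12.5% were lower and 9.86% higher in the elongation zone, and 3.27% lower and 1.81% higher in the division zone. The rule used these comparisons, so the members, and lox1, are not counted in the lists. Of 3 further C4 and Calvin cycle loci, besides rbcS and RBCS, 3 fell in the elongation zone and 1 in the division zone, and 0 rose, with medians of -1.96 and -0.83. Of 24 further photosystem and light harvesting loci, besides PSAH, 19 fell in the elongation zone and 2 in the division zone, and 0 rose, with medians of -1.49 and -0.85. These lists are not separate from the blade markers summed above, since rca1, PEPC1, psbs1 and cab-m1 are in both.

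The list of nitrate uptake and assimilation genes, matched by name, held no member. Members without a gene name could not be matched to it. Only 6 of the 12 loci tested reached 5 FPKM in both HN groups, so the others could not become members. Of the 12, 6 fell in the elongation zone and 5 in the division zone, with 0 rising and medians of -0.53 and -0.81. With libraries scaled to equal FPKM totals 3 and 5 fell, and 2 rose in each zone. The nitrite reductase NIR changed by -1.52 and -1.38. Of 11 further loci named as response regulators, besides the member RR5 locus, 5 fell and 3 rose in the elongation zone (4 and 3 with equal totals, 5 and 1 with median of ratios scaling). In the division zone 2 fell and 0 rose (1 and 1 with equal totals). The 11 include the other loci of the RR5 name, of which XLOC_018031 fell in both zones. Without rescaling, those that rose were RR8, RR9 and RR10. The loci were matched by name and not divided by class. Their medians were 0.11 in the elongation and -0.37 in the division zone. Of 12 further heat shock loci, besides the members HSP60-1 and hsp18c, 1 fell and 1 rose in the elongation zone (1 and 3 with equal totals). In the division zone 1 fell and 0 rose, and the medians were -0.11 and -0.29. Without rescaling, the locus that fell in each zone was XLOC_026918, the second locus matched to the HSP60-1 gene. Of 8 lipoxygenase loci other than lox1, 2 fell and 2 rose in the elongation zone (0 and 3 with equal totals), and 1 fell and 3 rose in the division zone (1 and 4 with equal totals), with medians of 0.11 and 0.62.

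These counts depended on single libraries. With each library left out in turn, the photosystem loci that fell numbered 3 to 22 in the elongation zone (3 without LN elongation replicate 1 and 5 without replicate 2, and 1 with only the elongation groups fitted) and 0 to 5 in the division zone, with 0 when any 1 of the 4 division libraries was left out. The ranges of loci that fell, in the elongation and the division zone, were 2 to 3 and 0 to 1 for the C4 and Calvin cycle, 1 to 5 and 0 to 5 for nitrate, 2 to 5 and 0 to 3 for the response regulators, 1 to 6 and 0 to 3 for the heat shock loci and 0 to 2 and 0 to 1 for the lipoxygenases. The loci that rose in the elongation zone numbered 0 to 3 for the response regulators, 0 to 2 for the heat shock loci and 0 to 2 for the lipoxygenases. In the division zone the lipoxygenases that rose numbered 0 to 4, with 0 when any 1 division or LN elongation library was left out and 0 with the replicate block.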

How the data were processed

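RNA from 2 zones of leaf 6 was sequenced in 8 libraries, 2 for each combination of zone and nitrogen supply. The deposited table gives 1 FPKM value per assembled locus and library; FPKM is the unit judged from the values, since neither its header nor the labels name it. Per the submitters' processing notes TopHat2, edgeR and the build B73 RefGen_v3 were used; their versions and roles, and how many reads were mapped, are unknown here. Its 44070 lines hold 43110 loci, each used once. Starts in the table count from 0 and are given here from 1.

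The members and gene lists were chosen with earlier results of these data known. Zone and nitrogen comparisons used limma 3.58.1 (R 4.3.3) on log2(FPKM + 1), with an intensity trend and 4 group means (4 residual degrees of freedom), over the 24706 loci that averaged 1 FPKM or more in some group; Benjamini-Hochberg adjustment ran over all of them, with a threshold of 0.05. Changes on this scale understate those of loci near or under 1 FPKM. The procedure was tested on simulated data. P-values measure the spread between these libraries, and no interval for counting error is given because depth is unknown. Names came from the deposited table and, by identifier, from RefSeq's gene table, which holds symbols without product descriptions; planned lists that needed descriptions (such as transporters, kinases and transcription factors) were not built.

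Named in the text are the 10 members with the lowest mean change, all members with a gene name, the 3 largest called rises and falls between zones at each supply, the 3 loci on each side of the threshold, and members within 100 kb of each other. Outside this rule, XLOC_009516, NIR, the second HSP60-1 locus, the other RR5 loci, RR8, RR9 and RR10 were chosen after their values were seen. The single dividing-cell markers were likewise named after their values were seen. Promoter motifs were not searched and no sequences are shown. Alternatives were a pseudocount of 0.1, scaling to equal totals or by median of ratios, no filter, no trend, only the groups compared, a block for the replicate number, other thresholds of the rule, and each library left out.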

Additional observations from a re-analysis of the deposited data

How the results depend on the processing

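The number of loci meeting the rule was 67; it was 33 with all libraries scaled to equal FPKM totals, 370 with a threshold of -1 and 23 with a threshold of -2, and 59 to 84 with each library left out in turn. Equal totals moved the median change of all tested loci to 0.43 in the elongation zone and 0.14 in the division zone, and all 67 members still lay below 0 in both zones. Other settings gave 77 to 95 loci. Between zones, members higher in the elongation zone numbered 30 to 35 at LN and 34 to 43 at HN with each library left out, and members lower there 3 to 10 and 4 to 7; a pseudocount of 0.1 gave 11 lower at LN in place of 7, and equal totals moved the median of all loci at HN to -0.22 and gave 37 members higher and 7 lower. At HN that scaling made 40.9% of all called loci higher, against 52.9%.

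Counts over all loci for LN against HN depended more on the settings. In the division zone 1257 loci were called; the count was 2164 with equal totals (62.1% higher, against 35.6%), 1977 with only the 2 groups fitted, and 66 to 3529 with each library left out. In the elongation zone 5531 were called, 8628 with equal totals (77.4% higher, against 44.1%; 30.1% with median of ratios scaling), 42 with only the 2 groups fitted, and 452 to 10154 with each library left out. The causes were not tested.

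Replicate numbers are not said to mark shared plants, and the correlations of same-numbered libraries' deviations ran from -0.19 to 0.33 between groups, so the block was an alternative only. With the replicate block, 35 members at LN were called higher and 6 lower, 42 and 5 at HN, and 506 and 4245 loci were called for LN against HN in the division and elongation zones. Among the 30 members named, no call turned its direction in the alternatives fitted: 837 of their zone values kept their direction and side of the threshold, 18 lost and 25 gained a call, 11 uncalled values changed sign, and 1 (XLOC_002072 at LN without LN elongation replicate 2) became 0. For 8 members no LN value could be had with only the LN groups fitted, because they did not pass the filter.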
